A study of Mus musculus with 10 samples.

Results

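Ephrins and their Eph receptors were examined in tumour epithelium of the KPFSR mouse, an engineered mouse that develops pancreatic ductal adenocarcinoma. The 10 genes were chosen by symbol from a count table of 15624 genes. They were the ligand genes Efna1, Efna4, Efna5, Efnb1 and Efnb2 and the receptor genes Epha1, Epha2, Ephb2, Ephb3 and Ephb4. The set was proposed with results of these data in view. Efna4 gives it its name and ranks at place 8 of all tested genes by p between tamoxifen and corn oil, so its difference is a description and supports nothing. All 10 were in the table and all 10 passed the filter on low counts. Of the other 12 genes of the family, 9 were in the table. Their mean levels over the 10 libraries ran from 0.0520 to 16.04 normalised CPM (Epha4), just under Ephb2, the lowest of the 10 chosen genes at 17.2. Normalised CPM are read counts divided by library size (CPM), scaled between libraries with TMM factors.

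Epithelium was cut by laser capture microdissection from frozen sections of established tumours, per the series' design text. The treatment was corn oil, the usual vehicle of tamoxifen (n = 4), or tamoxifen (n = 6), with no dose or time stated in the labels. The labels name the model but not its alleles. From knowledge of the model, both groups carry, among other alleles, a mutant Trp53 allele, a Flp recombinase driven by Pdx1, Slc7a11 alleles flanked by lox sites and a tamoxifen-inducible Cre recombinase expressed from the Rosa26 locus. A Cre from that locus is not restricted to epithelium, so host cells can recombine too. For the ages, sexes and strain of the animals nothing is stated in the labels. Which libraries come from separate animals is not stated in the labels. The p-values therefore measure only how far these libraries spread, which may in part be technical.

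Ephrins are cell-surface ligands and Eph proteins are the receptor tyrosine kinases that bind them on a neighbouring cell. Ephrin-A proteins hang from a lipid anchor and mostly bind EphA receptors, whereas ephrin-B proteins cross the membrane and mostly bind EphB receptors. Contact sends a forward signal into the receptor cell and a reverse signal into the ligand cell. In epithelia the system is known for keeping cell populations apart and for the contact-dependent restraint of migration, and in the gut the EphB2 and EphB3 genes are known targets of beta-catenin.

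Total counts were 16473900 to 36132300 with corn oil and 6899350 (replicate 6) to 19462100 with tamoxifen. Slc7a11, the cystine transporter gene deleted in the model, stood at 23.2 to 40.1 normalised CPM with corn oil and at 5.90 to 19.3 with tamoxifen. Trp53, the other check of the labels, stood at 6.22 to 8.91 with corn oil and at 19.98 to 225 with tamoxifen. Its log2 fold change of tamoxifen over corn oil was 4.30 (SE 0.61, edgeR adjusted p 0.0362). The part of Trp53 in the values of the 10 chosen genes was not tested. All 10 markers of epithelium were measured. Their summed level was 17044 to 35427 normalised CPM with corn oil and 15122 to 27332 with tamoxifen, and 9 of the 10 were lower with tamoxifen (median log2 fold change of tamoxifen over corn oil, log2FC, -0.51). Krt18 and Krt19, simple-epithelial keratins, were the most abundant markers at mean levels of 6545 and 4807 normalised CPM in the corn oil group and 6473 and 3105 in the tamoxifen group. The acinar markers, led by Cpa1 and Ctrb1, summed to at most 3.64 normalised CPM in any library, and those of lymphocytes, led by Ptprc, to at most 12.6. The 11 fibroblast markers summed to 449 to 1008 with corn oil and 593 to 2098 with tamoxifen, with Fbln2 and Col3a1 highest. The 8 smooth muscle and pericyte markers, led by Acta2 and Des, summed to 22.7 to 50.9 and 18.7 to 151. The 8 measured macrophage markers, led by Cd14 and Lyz2, summed to 949 to 1417 and 824 to 2194. Likeness between libraries was uneven, with tamoxifen replicates 1 to 3 the closest: across genes, which are no replicates, their log2 CPM correlated at Pearson's r of 0.921 to 0.963, and other pairs at 0.878 or less. Results for the 10 chosen ephrin and Eph genes are therefore also given without these 3 or with the 3 summed as 1 sample.

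Efna4 and Ephb3 were the genes of the set whose groups did not overlap, and the plot of all 10 genes by library shows each value. Efna4 encodes a lipid-anchored ephrin-A ligand and Ephb3 a receptor for B-class ephrins. Between tamoxifen and corn oil 0 of the 10 genes passed an FDR of 0.05 in edgeR's quasi-likelihood test, against 0.0384% of all 13006 tested genes (0.0308% lower and 0.00769% higher with tamoxifen). At an unadjusted edgeR p under 0.05 there were 3 of 10 (Efna1, Efna4 and Ephb3), against 9.7% of tested genes. Of these 3, Efna4 and Ephb3 were lower (5.27% of tested genes) and Efna1 was higher (4.43%). The groups did not overlap for 2 of 10, against 3.23% of tested genes. Both lay below corn oil (1.95% of tested genes) and 0 lay above (1.28%). Since the set was chosen with this comparison known, these counts are descriptions. By other tools, DESeq2 called 2 of 10 (Efna4 and Ephb3), against 2.33% of the genes it tested, and limma voom weighted by sample quality called 3 of 10 (Efna1 as well), against 9.62%. Of the 10 genes 5 were higher and 5 lower with tamoxifen, where 50.7% of tested genes were lower. Their median log2FC was -0.016, beside -0.010 over all tested genes.

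**Figure D1:**
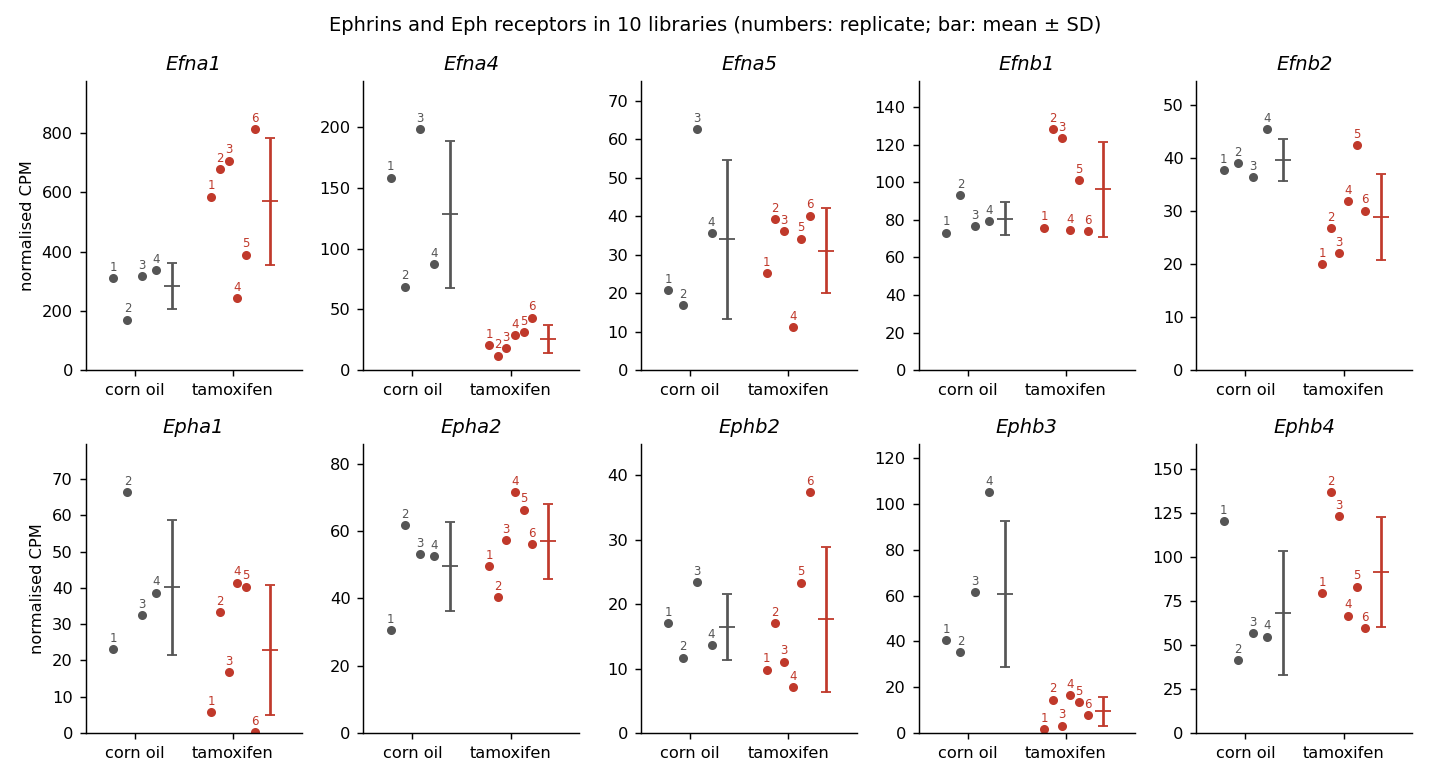
Normalised CPM (vertical axis, linear from 0) of each of the 10 genes in the 4 corn oil (grey) and 6 tamoxifen (red) libraries, numbered by replicate, with mean and SD as a bar. Efna4 and Ephb3 sit lower in every tamoxifen library than in any corn oil library, and the other 8 genes overlap between groups.

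The start regions of Efna4 and Ephb3 are shown because these are the 2 genes whose groups did not overlap. They come from RefSeq promoter tables on GRCm38.p6, where all 10 genes were matched. Each stretch ends at the last base before the first transcript. Capitals mark the words searched for the TCF/LEF factors, which act with beta-catenin (the word CTTTGTT, the word CTTTGAT, the word CTTTGAA or the word CTTTGTA), and the GC box (GGGCGG). Both strands were read, and no marked words overlapped in these stretches. The Ephb3 stretch stops 40 bases before the RefSeq start, where the GENCODE transcript begins.
Efna4, chr3:89338029-89338278, minus strand: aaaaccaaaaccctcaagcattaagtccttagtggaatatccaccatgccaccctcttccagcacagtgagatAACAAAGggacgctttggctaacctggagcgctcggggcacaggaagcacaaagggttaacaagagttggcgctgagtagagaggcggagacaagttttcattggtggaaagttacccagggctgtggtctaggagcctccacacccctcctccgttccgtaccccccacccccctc
Ephb3, chr16:21204545-21204754, plus strand: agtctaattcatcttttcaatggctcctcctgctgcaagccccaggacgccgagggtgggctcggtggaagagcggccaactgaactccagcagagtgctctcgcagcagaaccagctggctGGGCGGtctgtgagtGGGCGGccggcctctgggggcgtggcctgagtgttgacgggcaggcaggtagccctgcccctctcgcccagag
The Efna4 stretch held 1 TCF/LEF word and 0 GC boxes, and the Ephb3 stretch 0 TCF/LEF words and 2 GC boxes. In the full 250 bases before the RefSeq start, a TCF/LEF word occurred in 2 of the 10 genes (Efna4 and Epha2) and in 10.8% of the 11319 promoters of genes in the table. A GC box occurred in 7 of the 10 genes and in 55.9% of those promoters. Efna4 had 7 CpG dinucleotides in that window, the fewest of the 10 genes, whose median was 14.5. Matches of such short words describe the sequence only.

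Among the ephrin-A ligands, only Efna4 was lower in every tamoxifen library than in each corn oil library. It stood at 158, 68.7, 198 and 87.1 normalised CPM in corn oil replicates 1 to 4. The 6 tamoxifen libraries ran from 12.0 (replicate 2) through a median of 24.8 to 43.3 (replicate 6). The highest tamoxifen library was thus below the lowest corn oil library. Group means were 128 ± 60.7 (SD, n = 4) and 25.7 ± 11.2 (SD, n = 6), a mean 4.98-fold higher with corn oil, and the fitted log2FC was -2.32 (SE 0.40, edgeR adjusted p 0.0858). The gene had at least 237 reads in each library. Tamoxifen replicates 1 to 3 held the lowest values, 12.0 to 20.6, and replicates 4 to 6 held 29.0 to 43.3. The summed epithelial markers split the same libraries, at 15122 to 16734 normalised CPM in replicates 1 to 3, below each corn oil library, and 23590 to 27332 in replicates 4 to 6, and their part in the Efna4 values was not tested. The Efna4 log2FC was -2.08 (SE 0.43) with tamoxifen replicates 1 to 3 summed as 1 sample and -1.88 (SE 0.44) without them.

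The Efna4 gene spans chr3:89333390-89338028 (GRCm38, minus strand) and has 1599 bases of merged exons. Of these, 168 are shared with an antisense gene that was not in the table, and without strand its reads cannot be told apart. Efna1 and Efna3 lie beside it on the same strand, at 89271733 to 89281142 and 89313899 to 89322965. The log2FC values of the 3 ephrin-A genes of this stretch differed in sign. Efna3 was at 8.44 ± 4.63 normalised CPM (SD, n = 4) and 3.71 ± 1.94 (SD, n = 6) in the corn oil and tamoxifen groups, a log2FC of -1.19 (SE 0.71, edgeR adjusted p 0.656).

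Efna1, a ligand of EphA2 that is known as an inducible gene of epithelium and endothelium, was the only one of these 3 with a higher mean under tamoxifen. It stood at 309.7, 171, 317 and 338 normalised CPM in corn oil replicates 1 to 4, and from 242 (replicate 4) through a median of 633 to 813 (replicate 6) with tamoxifen. Tamoxifen replicate 4 lay within the corn oil range and the other 5 tamoxifen libraries lay above it. The means were 284 ± 76.5 (SD, n = 4) and 569 ± 215 (SD, n = 6). The log2FC of 1.0 (SE 0.34) did not pass the test (edgeR adjusted p 0.335). It was 0.91 with tamoxifen replicates 1 to 3 summed as 1 sample and 0.77 without them.

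Within 100 kb of Efna4, 15 other genes were tested, of which 6 were higher and 9 lower, where 50.7% of all tested genes were lower. The median log2FC of the 15 was -0.16. In edgeR 0 of them passed the FDR (0.0384% of all tested genes) and 1, Efna1, had an unadjusted p under 0.05 (9.7%). DESeq2 called 0 of them (2.33% of the genes it tested) and limma voom called Efna1 (9.62%). Adam15, the nearest gene on the side opposite Efna3, was at 49.4 ± 12.5 normalised CPM (SD, n = 4) and 44.2 ± 25.5 (SD, n = 6), a log2FC of -0.16 (SE 0.52). Trim46, at the far end, had the highest value, 1.85 (SE 0.98), from a level of 3.21 ± 3.26 normalised CPM (SD, n = 4) with corn oil. It was 2.68 without corn oil replicate 3 and 1.16 without tamoxifen replicates 1 to 3. The other genes of the window, Krtcap2, Dpm3, Slc50a1, Zbtb7b, Gm15417, Lenep, Flad1, Cks1b, Shc1, Pygo2 and Pbxip1, lay between -0.58 and 0.39, and Dcst1 was under the count filter. The plot of fold change by distance shows Efna4 below all its neighbours.

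**Figure D2:**
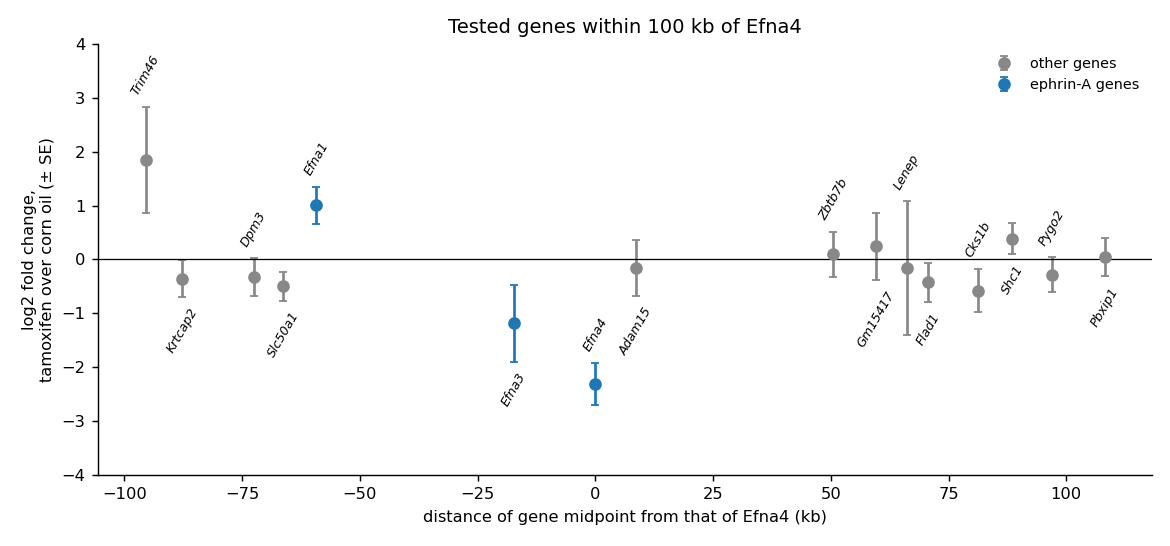
Log2 fold change of tamoxifen over corn oil (vertical axis, bars are SE) against the distance of each gene's midpoint from that of Efna4 in kb, for the tested genes within 100 kb. Efna4 at -2.32 has the lowest value, while its ephrin-A neighbours Efna3 and Efna1 (blue) are at -1.19 and 1.0.

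Efna5, a lipid-anchored ligand best known from axon guidance, did not separate the groups. It stood at 20.8, 16.8, 62.6 and 35.7 normalised CPM with corn oil and from 11.2 (replicate 4) through a median of 35.2 to 40.2 with tamoxifen. Tamoxifen replicate 4 was the 1 library below the corn oil range and corn oil replicate 3 the highest. The log2FC of -0.13 (SE 0.45, edgeR adjusted p 0.971) became 0.35 without corn oil replicate 3 and -0.25 without tamoxifen replicates 1 to 3.

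The makeup of the ephrin-A class was compared inside each library, which needs no scaling between libraries. Levels were divided by merged exon length and summed over the 5 ephrin-A genes of the table. Efna4 made up 35.5%, 30.3%, 38.9% and 21.7% of this sum in corn oil replicates 1 to 4. With tamoxifen it made up 1.93% (replicate 2) to 11.7% (replicate 4), with a median of 4.69%. Efna1 took 54.3% to 73.7% with corn oil and 85.1% to 95.3% with tamoxifen. In tamoxifen replicates 4 to 6 alone, the Efna4 share was 5.596% to 11.7%, still below each corn oil library. The ratio of Efna1 to Efna4, per length, was 1.40 to 3.39 with corn oil and 7.28 to 49.5 with tamoxifen.

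**Figure D3:**
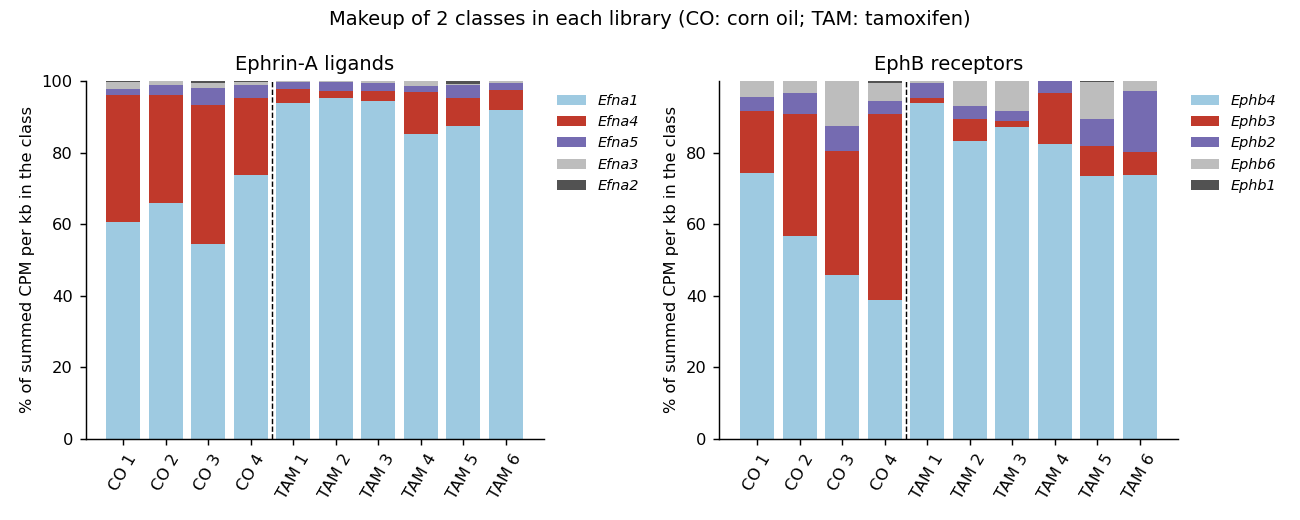
Share of each gene in the summed CPM per kb of its class (vertical axis, percent) in each library, for the ephrin-A ligands and the EphB receptors. Efna4 takes 21.7% to 38.9% with corn oil and 1.93% to 11.7% with tamoxifen, and Ephb3 takes 17.5% to 52.1% and 1.30% to 14.3%.

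The ephrin-B ligands differed less. Efnb1, an X-linked membrane-spanning ligand, was at 73.1, 93.0, 76.6 and 79.2 normalised CPM with corn oil and from 74.02 through a median of 88.5 to 128 (replicate 2) with tamoxifen. Its log2FC was 0.26 (SE 0.25, edgeR adjusted p 0.816). Tamoxifen replicates 2 and 3 were the high libraries, and the log2FC was 0.053 without replicates 1 to 3. Efnb2, the ligand known as a marker of arteries, was at 37.7, 38.96, 36.3 and 45.4 normalised CPM with corn oil and from 20.03 (replicate 1) through a median of 28.5 to 42.4 (replicate 5) with tamoxifen. Of the 6 tamoxifen libraries only replicate 5 reached the corn oil range. The log2FC of -0.46 (SE 0.30) did not pass the test (edgeR adjusted p 0.694) and was -0.18 without tamoxifen replicates 1 to 3.

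The share of Efnb2 in the ephrin-B class split the tamoxifen libraries. Per length it was 17.4% to 22.4% with corn oil. In tamoxifen replicates 1 to 3 it was 8.18% to 11.7%, and in replicates 4 to 6 it was 16.98% to 17.8%.

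EphA receptors were measured through Epha1 and Epha2. Epha1, a receptor of epithelial tissues, was at 23.1, 66.5, 32.4 and 38.7 normalised CPM with corn oil. With tamoxifen it ran from 0.163 (replicate 6) through a median of 24.96 to 41.5 (replicate 4). Tamoxifen replicate 6, the shallowest library, held 1 read of it. The log2FC was -0.80 (SE 0.82, edgeR adjusted p 0.832), and -0.55 without tamoxifen replicates 1 to 3. It was -1.93 with sex, read from Xist and Ddx3y, as a covariate. The groups differed in sex, with 2 female and 2 male libraries under corn oil and 1 female and 5 male under tamoxifen. Exons of Epha1 share 236 bases with Zyx on the opposite strand, whose reads there cannot be told apart.

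Epha2, the receptor of Efna1 most studied in carcinoma, overlapped between the groups. It was at 30.7, 61.7, 53.2 and 52.6 normalised CPM with corn oil and from 40.4 (replicate 2) through a median of 56.8 to 71.6 (replicate 4) with tamoxifen. The means were 49.5 ± 13.2 (SD, n = 4) and 56.9 ± 11.2 (SD, n = 6). Its log2FC of 0.20 (SE 0.28, edgeR adjusted p 0.893) was smaller than its SE. Without tamoxifen replicates 1 to 3 the log2FC was 0.39 (SE 0.36).

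Among the EphB receptors Ephb3 stood apart. It was at 40.5, 35.4, 61.7 and 105 normalised CPM in corn oil replicates 1 to 4. Tamoxifen libraries ran from 1.57 (replicate 1) through a median of 10.5 to 16.5 (replicate 4). Every tamoxifen library lay below the lowest corn oil library. The means were 60.7 ± 31.8 (SD, n = 4) and 9.47 ± 6.25 (SD, n = 6), a mean 6.41-fold higher with corn oil. The log2FC of -2.68 (SE 0.60) was the most negative of the 10 genes and did not pass the test (edgeR adjusted p 0.150). Tamoxifen replicate 1 held 18 reads of the gene and corn oil replicate 4 held 2532. The log2FC was -2.43 (SE 0.49) with tamoxifen replicates 1 to 3 summed as 1 sample and -2.28 (SE 0.54) without them.

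Ephb2, the receptor closest to Ephb3 in known function in the gut, overlapped between the groups. It was at 17.1, 11.7, 23.4 and 13.7 normalised CPM with corn oil and from 7.10 (replicate 4) through a median of 14.04 to 37.4 (replicate 6) with tamoxifen. The log2FC was 0.098 (SE 0.52, edgeR adjusted p 0.982), -0.27 without tamoxifen replicate 6 and 0.46 without tamoxifen replicates 1 to 3.

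Ephb4, the receptor of Efnb2 and a known marker of veins, was at 120.1, 41.3, 56.8 and 54.6 normalised CPM with corn oil. With tamoxifen it ran from 59.5 (replicate 6) through a median of 81.1 to 137 (replicate 2). Corn oil replicate 1 was the high library of its group, and all 6 tamoxifen libraries lay above the other 3. The log2FC of 0.42 (SE 0.35, edgeR adjusted p 0.778) was 0.84 without corn oil replicate 1 and 0.036 without tamoxifen replicates 1 to 3. Exons of Ephb4 share 33 bases with Zan on the opposite strand.

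Within the EphB class the share of Ephb3 per length was 17.5%, 34.0%, 34.7% and 52.1% in corn oil replicates 1 to 4. It was 1.30% (replicate 1) to 14.3% (replicate 4) with tamoxifen, with a median of 6.42%. The share of Ephb4 was 38.7% to 74.2% with corn oil and 73.5% to 93.9% with tamoxifen. The groups did not overlap in the Ephb3 share and overlapped in the Ephb4 share.

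The fold changes of the whole family, drawn with their standard errors, show Efna4 and Ephb3 at one end and Efna1 among the higher values. Of the 12 other family genes, 5 passed the count filter, of which 4 were lower and 1 was higher. None of these 5 passed the FDR in edgeR (0.0384% of all tested genes) and DESeq2 gave 0 calls (2.33% of the genes it tested). An unadjusted edgeR p under 0.05 was reached by 0 (9.7% of tested genes). Epha4, a receptor that binds both ligand classes, was at 22.8 ± 10.9 normalised CPM (SD, n = 4) and 11.5 ± 10.4 (SD, n = 6), a log2FC of -0.99 (SE 0.62, edgeR adjusted p 0.676). Limma voom with sample quality weights called Epha4 (adjusted p 0.0329), 1 of these 5, against 9.62% of all tested genes.

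**Figure D4:**
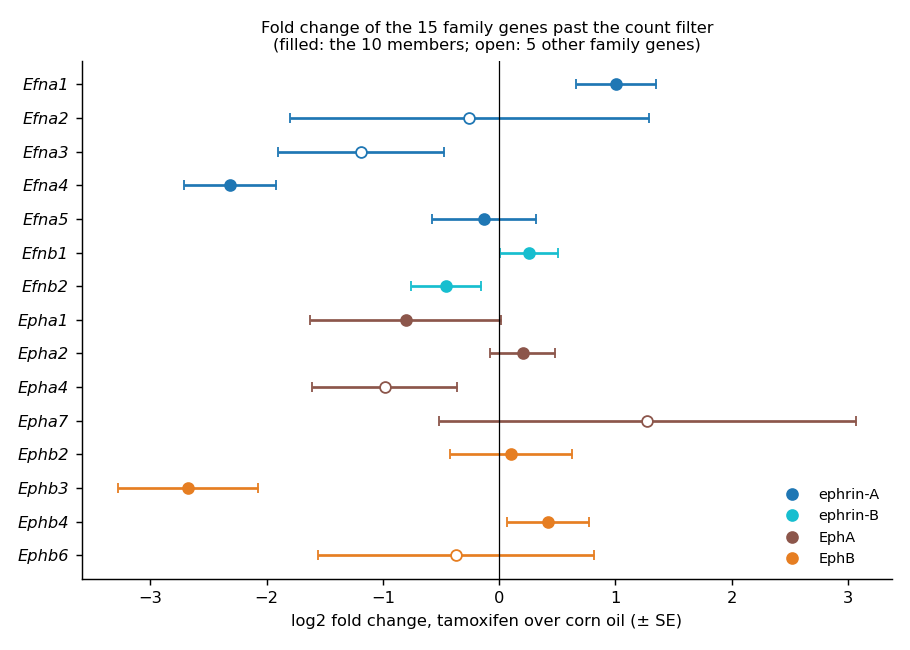
Log2 fold change of tamoxifen over corn oil (horizontal axis, bars are SE) of the 15 ephrin and Eph genes past the count filter, filled for the 10 chosen genes and open for 5 others. Ephb3 at -2.68 and Efna4 at -2.32 have the lowest values and Efna1 is at 1.0.

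Levels were also compared between genes, per kb of merged exons. With corn oil the order was Efna1 at 155 ± 41.8 CPM per kb (SD, n = 4), Efna4 at 80.1 ± 37.9, Efnb1 at 23.3 ± 2.52, Ephb4 at 14.7 ± 7.59, Epha2 at 10.6 ± 2.83, Epha1 at 10.2 ± 4.75, Ephb3 at 9.14 ± 4.79, Efna5 at 8.43 ± 5.14, Efnb2 at 5.78 ± 0.584 and Ephb2 at 1.30 ± 0.406. Of the neighbours in this order only Efna4 and Efnb1, and Efnb2 and Ephb2, had ranges that did not overlap, and Efna1 was above Efna4 in 4 of 4 libraries although their ranges overlapped. With tamoxifen Efna1 stayed first at 311 ± 117 CPM per kb (SD, n = 6) and Ephb2 last at 1.40 ± 0.896. Efna4 went from place 2 to place 4 at 16.1 ± 7.0 and Ephb3 from place 7 to place 9 at 1.43 ± 0.941. By longest transcript in place of merged exons, Ephb3 was at place 5 with corn oil, at 12.8 CPM per kb. In the tamoxifen order only Efna1 and Efnb1, and Efnb2 and Ephb3, had ranges that did not overlap.

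Endothelial cells also express Efna1, Efnb2 and Ephb4. The 15 endothelial markers summed to 25.6 to 179 normalised CPM with corn oil and 33.6 to 157 with tamoxifen, with Flt1 and Plvap the most abundant. Defining markers were low, Pecam1 at a mean of 3.87 and Cdh5 at 1.36 normalised CPM over the 10 libraries, and none of the 15 was at 0 in all of them. The median log2FC of the 11 tested was -0.011, and their part in the values of these 3 genes was not tested. The fibroblast markers had a median of 0.74 and the macrophage markers one of -0.43, and their part in the values of the 10 genes was likewise not tested. Cd14, the most abundant macrophage marker, went against that median, at 249 to 584 normalised CPM with corn oil and 699 to 936 with tamoxifen (log2FC 0.95, SE 0.25, edgeR adjusted p 0.227, DESeq2 adjusted p 0.0100). The summed macrophage markers averaged 1094 with corn oil and 1289 with tamoxifen, although Cd14 was the only higher one of the 8 tested and 7 were lower. In captured tissue, fewer cells of a type and less RNA per cell cannot be told apart.

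Genes of Eph forward signalling, among them kinases and adaptors that act below the receptor, were described as a list of 32. All 32 were tested, 20 were higher and 12 lower, and their median log2FC was 0.26. In edgeR 0 passed the FDR (0.0384% of all tested genes) and 3 of 32 had an unadjusted p under 0.05, a share near the 9.7% of all tested genes. DESeq2 called 1 of 32 (2.33% of all genes it tested) and limma voom called 2, Kalrn and Rasa1 (9.62%). Rasa1, a Ras GTPase-activating protein recruited by EphB2, was at 39.8, 32.3, 36.6 and 36.1 normalised CPM with corn oil and from 55.4 through a median of 56.2 to 65.2 with tamoxifen. Each tamoxifen library lay above each corn oil library (log2FC 0.69, SE 0.23, edgeR adjusted p 0.327), and DESeq2 and limma voom called it. Sipa1l1, a Rap GTPase-activating protein bound by EphA4, was at 46.4 ± 11.9 normalised CPM (SD, n = 4) and 26.5 ± 7.24 (SD, n = 6), a log2FC of -0.81 (SE 0.31, edgeR adjusted p 0.402).

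Of 12 genes of reverse signalling, which act in the ligand cell, 11 were tested. There were 5 higher and 6 lower with a median of -0.069. The FDR was passed by 0 in edgeR (0.0384% of all tested genes) and by 0 in DESeq2 (2.33%). An unadjusted edgeR p of 0.05 was also passed by 0 (9.7%). Stat3, a transcription factor downstream of ephrin-B, had a log2FC of 0.37 (SE 0.25), and Tiam1, a Rac activator, one of -1.44 (SE 1.01), which was -0.51 without corn oil replicate 4, the highest library at 5.65 normalised CPM. Of 10 genes that cleave ephrins or Ephs or limit that cleavage, 5 were higher and 5 lower with a median of -0.062. In edgeR 0 passed the FDR (0.0384% of all tested genes), 1 of 10 had an unadjusted p under 0.05 (9.7%) and DESeq2 called 1 (2.33%). That was Mmp14, a membrane-bound protease that cuts EphA2. It was at 224, 102, 210.5 and 134 normalised CPM with corn oil and from 251 through a median of 320.4 to 400.0 with tamoxifen, without overlap between groups (log2FC 0.94, SE 0.27, edgeR adjusted p 0.271, DESeq2 adjusted p 0.0485). Psenen, a subunit of gamma-secretase, had a log2FC of -0.44 (SE 0.32), which was -0.76 without tamoxifen replicate 6, -0.090 without tamoxifen replicates 1 to 3 and -0.86 in limma voom (adjusted p 0.0274). In limma voom 3 of the 10 were called (Mmp14, Psenen and Rhbdl2), against 9.62% of all tested genes.

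Because Ephb2 and Ephb3 are known beta-catenin targets, 13 other such targets were described beside them. Of the 12 tested, 5 were higher and 7 lower, with a median log2FC of -0.34. The FDR was passed by 0 in edgeR (0.0384% of all tested genes) and by 0 in DESeq2 (2.33%). At an unadjusted edgeR p under 0.05 there were 2 of 12, against 9.7% of all tested genes, and limma voom called 3 (Myc, Sox9 and Tcf7), against 9.62%. Sox9, a transcription factor of ductal and progenitor cells, was at 384, 403, 367 and 458 normalised CPM with corn oil and from 80.05 through a median of 152 to 297 with tamoxifen. Its groups did not overlap (log2FC -1.20, SE 0.34, edgeR adjusted p 0.261). Myc, the growth regulator, went the other way, with means of 209 ± 70.4 normalised CPM (SD, n = 4) and 583 ± 426 (SD, n = 6) and a log2FC of 1.48 (SE 0.61, edgeR adjusted p 0.450). That value was -0.010 without tamoxifen replicates 1 to 3.

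The genes whose profile over the 10 libraries was most like that of Efna4 were found by the root mean square difference of log2 CPM after each gene's mean was removed. The 5 closest of 13005 were Fermt1 at 0.48, Pabpc1l at 0.50, Slc7a11 at 0.53, Fxyd3 at 0.55 and Nudt22 at 0.61, where the median gene was at 1.58. Fermt1, the epithelial kindlin that activates integrins, was at 362 ± 135 normalised CPM (SD, n = 4) and 93.3 ± 28.2 (SD, n = 6), and it passed the FDR (log2FC -1.96, SE 0.29, edgeR adjusted p 0.0362). Slc7a11 had a log2FC of -1.41 (SE 0.44). Since Efna4 was singled out by this comparison, genes with its profile share the group difference, and the pass of Fermt1 is a description. Of the other chosen ephrin and Eph genes the closest was Efnb2 at 1.07, in place 708, and Ephb3 was at 1.18, in place 1483. The places of family genes outside the chosen set, Efna3 among them, are not given.

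Efna1, Efna4 and Ephb3 kept the direction of their log2FC in each of the 20 alternatives tried, as the plot by alternative shows. All alternatives reuse these 10 libraries, and the groups of Efna4 and Ephb3 did not overlap. The direction of these genes could therefore hardly change, and its constancy is a description only. Efna4 ran from -2.99 to -1.88, Ephb3 from -2.92 to -2.27 and Efna1 from 0.77 to 1.17. Their adjusted p varied more. For Efna4 it ran from 6.36e-05 (DESeq2) to 0.781 (edgeR without tamoxifen replicates 1 to 3). It passed the FDR in DESeq2, in limma voom and in edgeR without tamoxifen replicates 4 and 6 (0.0326). That last setting left out Efna4 values of 29.0 and 43.3 normalised CPM and kept replicates 1 to 3, the libraries most alike and lowest in Efna4. With replicates 1 to 3 summed as 1 sample, the edgeR adjusted p of Efna4 was 0.386.

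**Figure D5:**
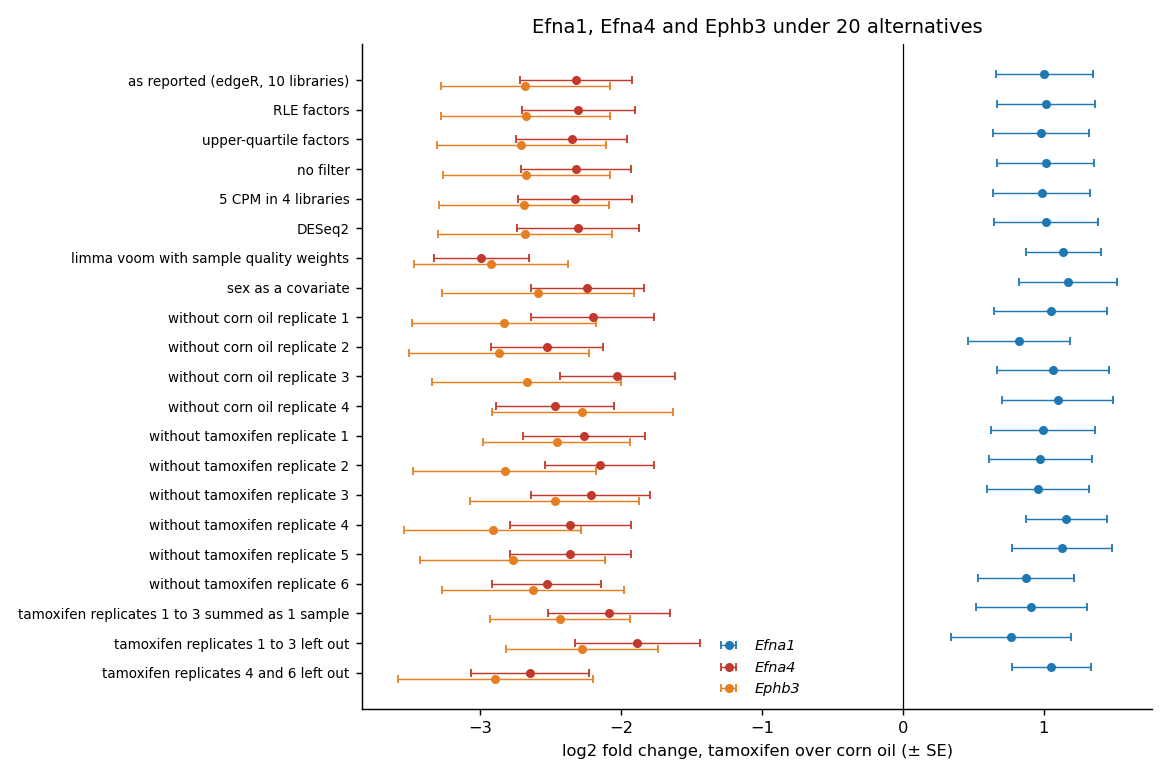
Log2 fold change of tamoxifen over corn oil (horizontal axis, bars are SE) of Efna1, Efna4 and Ephb3 as reported and under 20 alternatives. Efna4 (-2.99 to -1.88) and Ephb3 (-2.92 to -2.27) stay below 0 and Efna1 (0.77 to 1.17) above 0 in all of them.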

How the data were processed

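Raw counts by gene symbol were what the authors deposited, for 10 libraries made with the SMART-seq v4 and Nextera XT kits, which do not mark strand. The submitters' processing notes name mm10 and the tools featureCounts 1.5.0-p3, STAR 2.5.2b and bcl2fastq 2.17. Not given in the sources used here were the gene annotation, the strand setting and the treatment of multi-mapping reads. Libraries were grouped by the treatment label and numbered in accession order.

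These counts went unchanged into edgeR 4.0.16 under R 4.3.3 (filterByExpr, 13006 genes, TMM factors, quasi-likelihood F test without covariates, Benjamini-Hochberg adjustment over all tested genes, FDR 0.05), after a check on simulated data. SE values were derived as |log2FC| over the root of F. Log2 CPM used a prior count of 2. Lengths and positions came from GENCODE M21 on GRCm38, where 93.6% of symbols matched 1 gene. Alternatives used limma 3.58.1 and DESeq2 1.42.0. The genes and lists were chosen with earlier results of these data known. Named besides the 10 genes were, of each pathway list, up to 4 genes past the FDR or else the 2 with the lowest p among those whose mean log2 CPM reached 0, the 2 most abundant markers of each cell type (1 lymphocyte marker is not reported here), the tested genes within 100 kb of Efna4 the 5 most like it, and Slc7a11 and Trp53 as checks of the labels. Figures were drawn with matplotlib 3.10.9.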

Additional observations from a re-analysis of the deposited data

Results flagged for a closer look

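Of 20 comparisons of the lowest and highest library with the rest of its group, 1 for each of the 10 genes in each group, 1 passed the cutoff of Dixon's outlier test. By chance about 1 comparison in 20 would pass. Corn oil replicate 2 was lowest for Efna1 at 171 normalised CPM, with the other corn oil libraries at 309.7 to 338. The gap to the next library was 0.829 of the group's range, only just past the cutoff. Without corn oil replicate 2 the log2 fold change of Efna1 was 0.82.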

How the results depend on the processing

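No paired analysis was possible because the replicate numbers were given in accession order and pair no libraries. The number of genes past the FDR, 5 in edgeR, was 349 in DESeq2, 1251 in limma voom with sample quality weights and 77 in edgeR without tamoxifen replicates 4 and 6. It was 0 with sex as a covariate (1196 at an unadjusted p under 0.05), 0 with tamoxifen replicates 1 to 3 summed as 1 sample (709) and 0 without them (602), and 0 to 11 with 1 library left out. The median log2 fold change of the 10 genes was -0.24 to 0.24 with 1 library left out, lowest without tamoxifen replicate 6 and highest without corn oil replicate 3. That of the forward signalling list was 0.029 in limma voom and -0.017 without tamoxifen replicates 4 and 6, and 0.056 to 0.37 with 1 library left out (lowest without tamoxifen replicate 6, highest without replicate 5). The level of Efnb2 with corn oil was 8.26 CPM per kb by longest transcript and 5.78 by merged exons. Of the 10 genes, 8 kept the sign of their log2 fold change in 20 of 20 alternatives, and Efna5 and Ephb2 kept it in 17 and 16.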

Other observations

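Efnb3, the third ephrin-B ligand, lay under the count filter and enters no comparison above. It had 0 reads in the 4 corn oil libraries, whose 102872900 counts allow a level of up to 0.0292 CPM (3 counts over the group, counting error only). Its 35 tamoxifen reads were 7, 9 and 18 in replicates 1 to 3 and 1 in replicate 5, with 0 in replicates 4 and 6. Efnb3 lies on chromosome 11 at 69554092 to 69560205 of GRCm38, 20153 bases from Trp53. Trp53 stood at 225, 197 and 223 normalised CPM in tamoxifen replicates 1 to 3, at 146 in replicate 5, and at 19.98 and 84.6 in replicates 4 and 6, against at most 8.91 with corn oil. The other genes within 100 kb of Trp53 did not share its difference: of 9 tested, 4 were higher and 5 lower, with log2 fold changes of -0.96 to 0.50. Efnb3 was chosen after its values were seen.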
